A study of Mus musculus with 30 samples.

Results

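The 5 genes *Apoe*, *Apoc1*, *Apoc4*, *Apod* and *Clu*, all coding for apolipoproteins, were followed on 30 1-colour Agilent arrays of mouse hypothalamus. They were chosen by gene name among the 28146 names printed for the array. Each was represented by 1 probe, so 5 of 41174 probes are described here, and all 5 passed the filter on dim probes that left 29947 probes for testing. That filter asked for a signal well above background on at least 0.5 of the arrays of 1 genotype or more.

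Apolipoproteins are the protein shell of lipoprotein particles, which carry cholesterol and phospholipids between cells. In the brain *Apoe* is made mainly by astrocytes, is loaded with lipid by ABC transporters and is taken up through receptors of the LDL receptor family. *Apoc1* and *Apoc4* lie beside *Apoe* in a gene cluster and are best known from liver, where their products exchange between plasma lipoproteins. *Apod*, a lipocalin of glia and perivascular cells, and *Clu* (clusterin, also called apolipoprotein J), a secreted chaperone of astrocytes and ependymal cells, belong to other gene families.

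All mice were C57BL/6, described by the study as male, and were killed in the 17th cycle of an ultradian schedule of 3.5 h light and 3.5 h dark. In *Per3* 5/5 mice (labelled Boxhill, 7 arrays) mouse exon 18 of the clock gene *Per3* was replaced, in both copies, by human exon 18 with the 5-repeat form of a tandem repeat. *Per3* 4/4 mice (labelled Coach, 8 arrays) carried the 4-repeat form in the same way. The 15 wild-type (WT) arrays came from mice homozygous for mouse *Per3*, bred from the same conditional transgenic mice, and none of the 3 genotypes expressed Cre any longer. Each array held 1 mouse. Each knock-in was made with its own targeting vector in ES cells, and how many ES clones founded a line is not given in the sources used here. The arrays fell into 2 sets by the format of their scanner output. These sets are called runs here and were not read from a sample label. Run 1 held the 7 *Per3* 5/5 and WT arrays 1 to 7, and run 2 the 8 *Per3* 4/4 and WT arrays 8 to 15, so each knock-in was set against the WT arrays of its own run and the 2 knock-in genotypes shared no run. A level below is the log2 of a probe's intensity on an array minus the log2 of that array's 75th percentile.

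The tissue carried its labels' markers: 13 of 15 listed genes of hypothalamic neurons were well above background on all 30 arrays, *Hcrt* being the brightest, and 1 (*Otp*) on none. *Per3* 4/4 arrays 6 and 7 went against the stated sex. Their level of *Xist* (probe A_51_P145453), the RNA of the inactive X chromosome, was 1.78 and 1.51, and this probe was above background on 1 other array only, WT array 14 of run 2, at -4.47. Values without these 2 *Per3* 4/4 arrays are given for the members, the relations and the genes named in *Per3* 4/4. WT array 10 of run 2 stood apart in its cell type markers. On the scale of mean z-scores from its group's mean it was -2.57 for hypothalamic neurons, -1.97 for oligodendrocytes, -1.43 for pituitary, -1.30 for choroid plexus, -1.23 for ependyma and tanycytes and -1.08 for astrocytes. WT array 14 of run 2 was at 2.97 for pituitary, WT array 9 at 2.05 for choroid plexus, and WT array 8 at 2.27 for blood and 1.71 for oligodendrocytes. *Per3* 4/4 array 5 had the lowest 75th percentile of all arrays, 347 intensity units against a group median of 1060.

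The 3 probes below are shown because they are what was read for the brightest gene (*Apoe*), for the gene with the widest spread (*Apoc4*) and for a member outside the *Apoe* cluster (*Apod*). They are printed as on the array, 5′ to 3′, in lower case with nothing marked.
Apoe: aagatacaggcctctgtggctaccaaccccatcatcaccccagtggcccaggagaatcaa
Apoc4: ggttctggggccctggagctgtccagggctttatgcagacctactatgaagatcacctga
Apod: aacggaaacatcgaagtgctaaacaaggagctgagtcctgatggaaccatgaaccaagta
The *Apoe* probe (A_51_P171999) was placed by the run 1 files at chr7:20281732-20281791 of mouse build mm9, on the minus strand, and was spotted 10 times per array. *Apoc1* (A_51_P164504) lay at chr7:20274856-20274915 and *Apoc4* (A_51_P460332) at chr7:20263609-20263965, both on the minus strand. *Apod* (A_51_P366811) lay at chr16:31300545-31303530 on the minus strand and *Clu* (A_51_P367720) at chr14:66600151-66600210 on the plus strand. The spans of *Apoc4* and *Apod*, 357 and 2986 bases, exceed the 60 bases of a probe, so these 2 probes cross an exon junction. Exon and UTR positions of the others were not analysed here, since the annotation used here is of another build. The probes shared no run longer than 9 bases with one another (*Apoc1* with *Clu*). The *Apoe*, *Apoc1* and *Apoc4* probes hold 55% G or C, that of *Clu* 48.3% and that of *Apod* 45%.

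*Apoe* was well above background on all 30 arrays. In run 1 its level was 7.55 to 8.16 on the *Per3* 5/5 arrays (median 8.02) and 7.78 to 8.43 on the WT arrays (median 8.02). *Per3* 5/5 arrays 3, 5 and 6 lay below every WT array of the run and the other 4 within their range, so the groups overlapped. In run 2 it was 7.55 to 8.09 on *Per3* 4/4 (median 7.66) and 7.61 to 8.15 on WT (median 7.82), with 4 of 8 knock-in arrays below every WT array and the rest among them. The difference from WT was -0.20 ± 0.12 (SE) log2 units in *Per3* 5/5 (n = 7 against 7, limma adjusted p = 0.81) and -0.13 ± 0.11 in *Per3* 4/4 (n = 8 against 8, limma adjusted p = 1). The 95% intervals of these differences, -0.44 to 0.04 and -0.35 to 0.10, hold 0. Without WT array 15 the *Per3* 4/4 difference was -0.081. With quantile normalisation the differences were -0.11 and -0.028.

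*Clu* was bright on all 30 arrays. Its level was 5.95 to 6.35 on *Per3* 5/5 (median 6.31), 6.04 to 6.85 on WT of run 1 (median 6.34), 5.71 to 6.67 on *Per3* 4/4 (median 6.12) and 5.56 to 6.55 on WT of run 2 (median 6.20). The lowest *Per3* 5/5 arrays were again 3, 5 and 6, and WT array 1 was the highest of run 1 for both genes. All 7 *Per3* 5/5 arrays lay below the mean of the WT arrays of their run, which was also so for 4.47% of all probes tested, but 5 of them lay within the WT range. No member had every *Per3* 4/4 array below the WT mean, as 1.02% of all probes did. The differences were -0.16 ± 0.14 in *Per3* 5/5 (limma adjusted p = 0.89) and -0.04 ± 0.13 in *Per3* 4/4 (limma adjusted p = 1). The *Per3* 5/5 difference was -0.080 without WT array 1, and that in *Per3* 4/4 ranged from -0.13 to 0.017 with 1 array left out.

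*Apod* overlapped between the groups throughout. Its level was 3.83 to 4.43 on *Per3* 5/5 (median 4.02), 3.65 to 4.67 on WT of run 1 (median 4.04), 3.78 to 4.68 on *Per3* 4/4 (median 4.09) and 3.56 to 4.80 on WT of run 2 (median 4.30). No knock-in array lay outside the range of the WT arrays of its run in either comparison. The differences were -0.05 ± 0.17 (limma adjusted p = 0.998, unadjusted p = 0.77) in *Per3* 5/5 and -0.07 ± 0.16 (limma adjusted p = 1, unadjusted p = 0.66) in *Per3* 4/4, and both took either sign with 1 array left out. The *Per3* 5/5 difference was -0.20 without WT arrays 1 and 6 of run 1. The *Per3* 4/4 difference was 0.0085 without WT array 8, the highest of its group for *Apod* (4.80) and for blood and oligodendrocyte markers, whose part in it was not tested.

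*Apoc1* was detected on every array and spread more than most bright probes. Its SD within groups, 0.48, was larger than that of 89.8% of the 22391 probes above background on every array, whose median SD was 0.29. On *Per3* 5/5 its level was 2.51 to 3.17 (median 2.82) and on WT of run 1 2.61 to 4.02 (median 3.08). WT arrays 1 and 6, at 4.02 and 3.91, stood above all other arrays of the run, and the remaining 5 WT arrays overlapped the knock-in arrays. On *Per3* 4/4 it was 1.85 to 3.15 (median 2.22) and on WT of run 2 1.28 to 2.69 (median 2.02), and *Per3* 4/4 arrays 5 and 8, at 3.15 and 3.08, lay above every WT array of that run. The differences had opposite signs, -0.36 ± 0.25 in *Per3* 5/5 (7 of 7 arrays below the WT mean, limma adjusted p = 0.84) and 0.36 ± 0.23 in *Per3* 4/4 (6 of 8 above it, limma adjusted p = 1). Every *Per3* 5/5 array lay below the WT mean for 4.47% of all probes. The *Per3* 5/5 difference was -0.22 without WT array 1 of run 1 and -0.06 ± 0.25 without WT arrays 1 and 6. Leaving out both was chosen after seeing the data, and as they are the highest of the run a smaller difference was bound to follow. The WT mean of *Apoc1* moved by -1.22 log2 units from run 1 to run 2. Its run 1 value was 3.22, and 2.92 without WT arrays 1 and 6, against 2.00 in run 2. For *Apoc4* the WT mean was -4.35 in run 1, -5.36 without the same arrays, and -6.33 in run 2. Only 2 of 8 WT arrays in run 2 had a clear *Apoc4* signal, so its shift between runs has no exact size.

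*Apoc4* was the most uneven member and the only one not detected on every array. Its probe exceeded background clearly on 15 of the 30 arrays. These were 5 of 7 in *Per3* 5/5, 6 of 7 in WT of run 1, and 2 of 8 in each group of run 2. On *Per3* 5/5 its level ran from -6.17 to -4.79 (median -5.56). On the 7 WT arrays of run 1 it was -1.56, -4.98, -5.01, -5.59, -5.46, -2.12 and -5.73. WT arrays 1 and 6 again stood apart, at 10.9 and 7.4 times the median of their group, and the other 5 WT arrays overlapped the *Per3* 5/5 arrays. On *Per3* 4/4 the level ran from -7.20 to -3.73 (median -6.31), and arrays 3 and 5, at -3.73 and -3.95, were the only *Per3* 4/4 arrays on which the probe was well above background. The group's median is a value near background, so a distance from it has no exact size. On WT of run 2 it ran from -7.21 to -5.28 (median -6.35), and arrays 11 and 13 were those well above background.

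**Figure D1:**
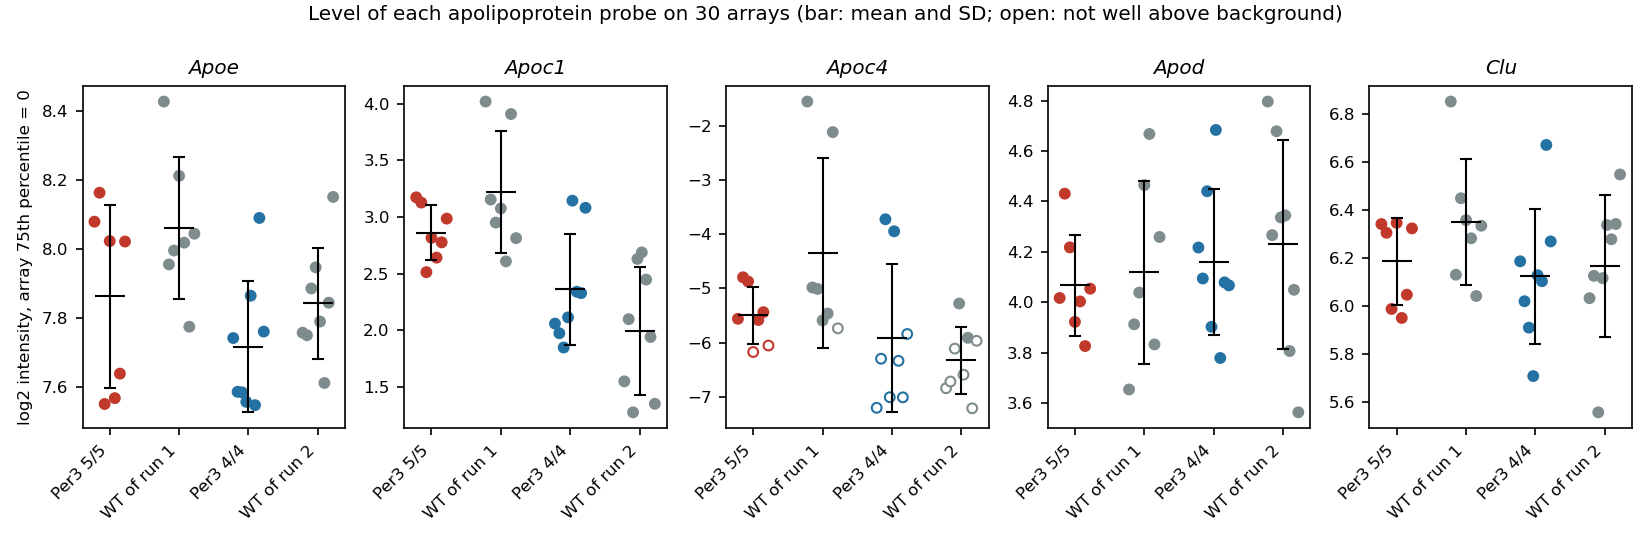
Each panel plots 1 gene, with the log2 intensity relative to the array's 75th percentile (0) on a y axis of its own range and the 4 groups along the x axis; each point is 1 array, open where the probe was not well above background, and the black bars are the mean and SD. The groups overlap in every panel, and for Apoc4 WT arrays 1 and 6 of run 1 (-1.56 and -2.12) and Per3 4/4 arrays 3 and 5 (-3.73 and -3.95) stand above the rest.

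The 7 *Per3* 5/5 arrays had a mean *Apoc4* level of -5.49 ± 0.53 (SD) and the 7 WT arrays of run 1 one of -4.35 ± 1.75 (SD). The difference was -1.14 ± 0.59 log2 units (95% interval -2.36 to 0.07), with 7 of 7 knock-in arrays below the WT mean (limma p = 0.063, Benjamini-Hochberg adjusted p = 0.80). Of all probes 4.47% had every *Per3* 5/5 array below the WT mean. A difference of 1.14 or more in size was found for 63 of the 29947 probes tested, or 0.21%. The probe also spread widely. Its SD within groups, 1.17, was larger than that of 99.8% of the probes above background on every array. By limma p *Apoc4* ranked 2364 of the 29947 probes. The difference was -0.68 without WT array 1 and -0.77 without WT array 6. Without WT arrays 1 and 6 the WT mean was -5.36 ± 0.34 (n = 5) and the difference -0.14 ± 0.48. These arrays were left out after seeing the data, as the highest of run 1 for *Apoc4*, so a smaller difference was bound to follow. With normexp background correction of all arrays the difference was -0.57. In *Per3* 4/4 the difference was 0.41 ± 0.55 (95% interval -0.73 to 1.54, limma adjusted p = 1), with 4 arrays above and 4 below the WT mean. It was 0.094 without *Per3* 4/4 array 3 and 0.13 without *Per3* 4/4 array 5, and 0.067 with normexp and 0.26 with quantile normalisation. *Per3* 4/4 arrays 3 and 5 were not left out together. Here 12 of the 16 arrays of run 2 gave no signal well above background, so most values of that comparison are near background. Without *Per3* 4/4 arrays 6 and 7 the *Per3* 4/4 differences were 0.66 ± 0.61 for *Apoc4*, 0.37 ± 0.26 for *Apoc1*, -0.16 ± 0.11 for *Apoe*, -0.13 ± 0.14 for *Clu* and 0.0039 ± 0.18 for *Apod*, and none passed the adjusted threshold.

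Counted over the members, 0 of 5 passed an adjusted p of 0.05 in either knock-in by limma, where 0% of all probes did in *Per3* 5/5 and 0.0134% in *Per3* 4/4. At an unadjusted p of 0.05 it was also 0 of 5 in both, beside 6.17% and 1.73% of all probes. The methods' t-test on the arrays of each run called none of the 5 after Benjamini-Hochberg adjustment, as it did none of all probes tested, and none at an unadjusted p of 0.05, beside 10.4% of all probes in *Per3* 5/5 and 0.988% in *Per3* 4/4. The methods' rank product, which ranks the fold changes of all array pairs, called *Apoc4* lower in *Per3* 5/5 at a false prediction estimate of 0.00456, under the limit of 0.015, and no other member in either knock-in. It called 1.06% of all probes in *Per3* 5/5 and 0.15% in *Per3* 4/4. Without WT array 1 the estimate for *Apoc4* was 0.0572, without WT array 6 it was 0.0666 and without both 0.607, so this call was lost when either array was left out. Both arrays had been picked for their high *Apoc4* after seeing the data, so a weaker call was bound to follow.

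Whether the knock-ins differed from WT by unlike amounts was tested as the *Per3* 5/5 minus the *Per3* 4/4 effect. For *Apoc1* this was -0.72 ± 0.34 (limma p = 0.043, adjusted p = 1) and for *Apoc4* -1.55 ± 0.81 (limma p = 0.066, adjusted p = 1). That of *Apoc4* was -0.55 without WT arrays 1 and 6 of run 1 and -0.64 with normexp. For *Apoe*, *Clu* and *Apod* it was -0.07 ± 0.16, -0.12 ± 0.19 and 0.02 ± 0.24, the last with a sign that turned when WT arrays 1 and 6 of run 1 were left out (-0.13). With 1 array left out that of *Apoe* ranged from -0.12 (without *Per3* 5/5 array 2) to -0.011 (without WT array 1) and that of *Clu* from -0.18 (without *Per3* 4/4 array 4) to -0.034 (without WT array 10). None of the 5 passed the adjusted threshold, nor did any of all probes tested (0%), and 2.98% of all probes had an unadjusted p under 0.05, among the members *Apoc1* alone.

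**Figure D2:**
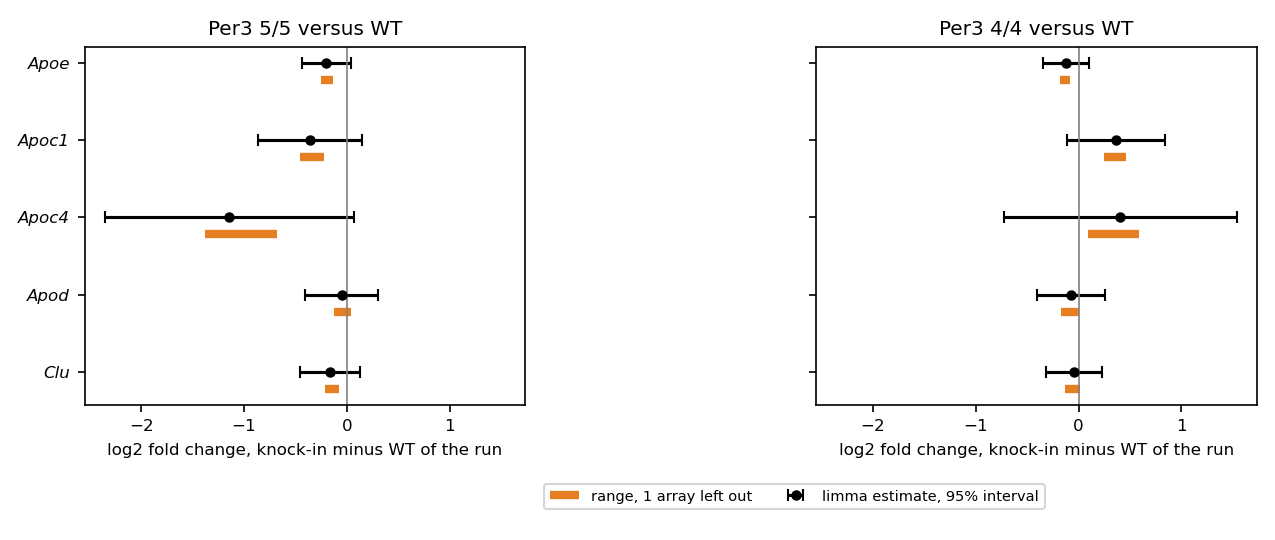
Points give the limma estimate of each gene's log2 fold change (x axis, knock-in minus WT of the same run) with its 95% interval, and orange bars the range of the estimate when each of the 30 arrays was left out in turn. All intervals reach across 0, and that of Apoc4 in Per3 5/5 (-2.36 to 0.07) is the widest.

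The pattern of *Apoc4* over the arrays was shared with other genes best known from liver. Among the 22391 bright probes, the 3 with the highest Pearson r of deviations from group means over 30 arrays included *Adh1* (alcohol dehydrogenase; A_52_P629895, r = 0.75) and *Apoa2* (an apolipoprotein of high density lipoprotein; A_51_P128973, r = 0.71). Within run 1 r was 0.94 and 0.97, and within run 2 0.43 and 0.32. On WT array 1 of run 1 *Adh1* and *Apoa2* stood at 4.88 and 4.95 times the median of their group, and on WT array 6 at 4.53 and 5.23 times. On *Per3* 4/4 array 5 they stood at 2.91 and 2.43 times, whereas on *Per3* 4/4 array 3, where *Apoc4* was high, their log2 deviations were 0.47 and -0.35. These correlations are a description, and the points share arrays, slides and scaling. WT arrays 1 and 6 of run 1 were on different slides.

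Of the 9 listed hepatocyte markers 8 had a probe and 4 were well above background on at least 24 arrays. The brightest was *Ttr*, which the choroid plexus makes as well. *Alb* and *Ahsg* were above background on 28 of 30 arrays, and *Cyp7a1*, the hepatocyte enzyme of bile acid synthesis, on 4. The summed level of the 7 genes other than *Ttr*, in units of the 75th percentile, was highest on *Per3* 4/4 array 5 (5.48), then on WT array 1 of run 1 (2.01), *Per3* 5/5 array 3 (1.88) and WT array 6 of run 1 (1.28). Group medians lay between 0.456 and 0.572. *Apoc4* on *Per3* 5/5 array 3 was -4.87, within the range of its group and above the group's median of -5.56. *Adh1* and *Apoa2* stood at 2 and 1.5 times their medians on that array. On *Per3* 4/4 array 3, where *Apoc4* was high, the sum was 0.187. Over 30 arrays the mean level of the list was related to *Apoc4* (r = 0.59, rho = 0.52, adjusted permutation p = 0.034 and 0.041), with r = 0.82 in run 1 and 0.36 in run 2. Without WT array 1 of run 1 and *Per3* 4/4 array 5, r fell to 0.38, so the relation rests in part on those arrays. The 6 probes of this list that were tested had a median difference from WT of -0.35 in *Per3* 5/5, with 5 negative. In *Per3* 4/4 the median was 0.07, with 2 negative. Over all 29947 probes the medians were -0.02 and 0.01, with 16311 and 14461 negative. In either knock-in 0 probes of the list passed the adjusted threshold. The part of these transcripts in the *Apoc4* difference was not tested.

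**Figure D3:**
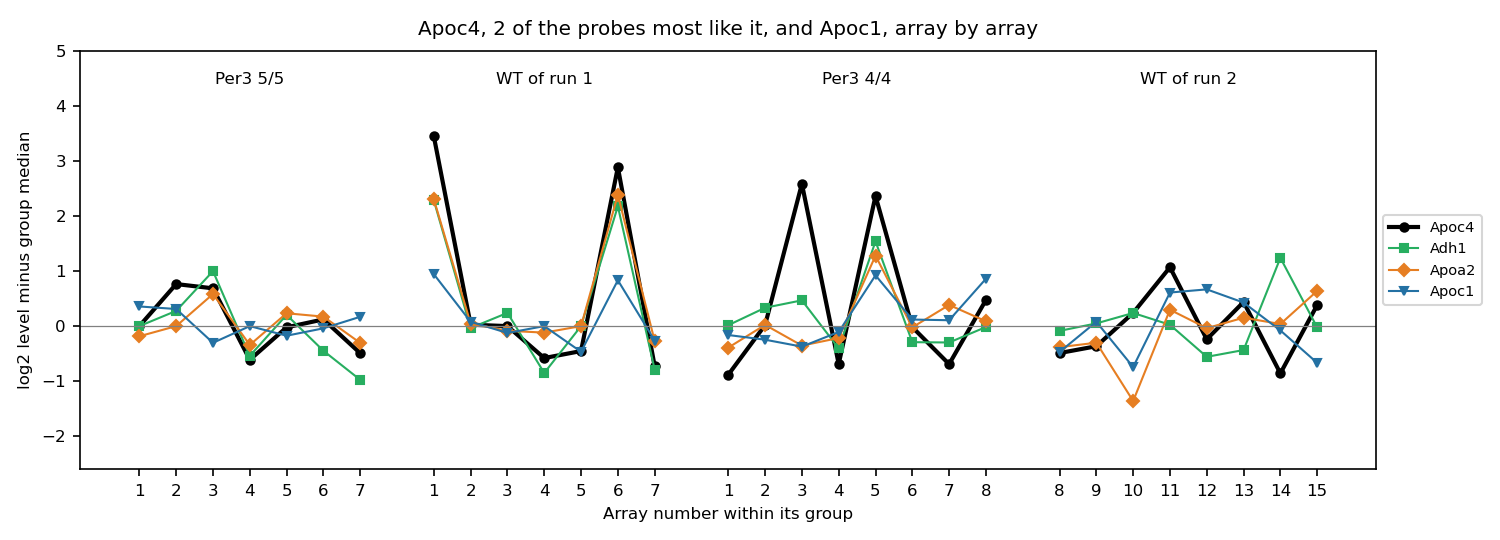
The y axis is the log2 level on an array minus the median of its group, and the x axis the array number within each of the 4 groups; lines join the arrays of a group for Apoc4, for Adh1 and Apoa2, which are among the 3 probes most like it, and for Apoc1, and have no order in time. All 4 genes stand above their group median on WT arrays 1 and 6 of run 1 and on Per3 4/4 array 5, while on Per3 4/4 array 3 Apoc4 is high (level -3.73) and Adh1 lies 0.47 above its median with Apoa2 and Apoc1 below theirs. The Apoc4 medians of both run 2 groups are near background, so its distances there have no exact size.

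Between members, the 10 pairs were compared on deviations from group means. *Apoe* and *Clu* moved together (r = 0.69, rho = 0.72, adjusted permutation p = 0.0026 and 0.0029 over all 65 relations computed), with r = 0.89 in run 1 and 0.55 in run 2. Without the 2 arrays farthest from the median of *Apoe*, WT array 1 of run 1 and *Per3* 4/4 array 7, r was 0.56. *Apoc1* and *Apoc4*, neighbours on chromosome 7, had r = 0.49 and rho = 0.39 (adjusted permutation p = 0.083 and 0.20), with 0.82 in run 1 and 0.23 in run 2, and r = 0.30 without WT array 1 of run 1 and *Per3* 4/4 array 5. *Apoe* and *Apoc1*, also neighbours, had r = 0.19 (adjusted permutation p = 0.71). The remaining 7 pairs missed the adjusted threshold as well, with r from -0.35 to 0.35.

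Of the marker lists, that of astrocytes was related to both *Apoe* and *Clu* by Pearson's r. The astrocyte level (13 of 13 genes above background on all arrays, *Aldoc* the brightest) was related to *Apoe* (r = 0.64, rho = 0.65, adjusted permutation p = 0.013 and 0.012) and to *Clu* (r = 0.63, rho = 0.59, adjusted permutation p = 0.0065 and 0.013). For *Apoe* r was 0.93 in run 1 but 0.16 in run 2, and for *Clu* 0.84 and 0.49. *Per3* 5/5 arrays 3, 5 and 6, low in *Apoe* and *Clu*, were also those with the lowest astrocyte level of their group, at -0.94, -0.50 and -0.80. The 30 astrocyte probes tested had a median difference from WT of -0.18 in *Per3* 5/5, with 23 negative. In *Per3* 4/4 their median was -0.01, with 17 negative. Over all 29947 probes the medians were -0.02 and 0.01, with 16311 and 14461 negative. Of the astrocyte probes 0 passed the adjusted threshold in either. The part of the astrocyte level in the group differences of *Apoe* and *Clu* was not tested. In bulk tissue, fewer cells of a type and less RNA per cell cannot be told apart.

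The level of ependymal cells and tanycytes, which line the third ventricle (11 genes, *Rarres2* the brightest), was related to *Clu* (r = 0.66, rho = 0.68, adjusted permutation p = 0.0072 and 0.0029), with r = 0.82 in run 1 and 0.60 in run 2, and to *Apoc1* (r = 0.64, rho = 0.67, adjusted permutation p = 0.013 and 0.0078). For *Apoc1* r was 0.30 in run 1 and 0.78 in run 2. The 15 probes of this list that were tested had a median difference from WT of -0.15 in *Per3* 5/5, with 10 negative. In *Per3* 4/4 the median was 0.15, with 9 positive, and 0 passed the adjusted threshold in either. Of all 29947 probes 16311 were negative in *Per3* 5/5 and 15474 positive in *Per3* 4/4. The part of the ependymal and tanycyte level in the differences of *Apoc1* and *Clu* was not tested. *Apod* was inversely related to the hypothalamic neuron level (r = -0.58, rho = -0.58, adjusted permutation p = 0.020 and 0.013), with -0.60 and -0.59 in the runs, and positively to that of blood (4 genes, *Hbb-b1* the brightest; r = 0.58, rho = 0.59, adjusted permutation p = 0.020 and 0.013), with r = 0.17 in run 1 and 0.75 in run 2. Choroid plexus markers (*Enpp2* the brightest) showed r between -0.19 and -0.03 with the 5 members. The 22 choroid plexus probes tested had a median difference from WT of -0.32 in *Per3* 5/5 and 0.65 in *Per3* 4/4. Of them 21 were negative in *Per3* 5/5 and 21 positive in *Per3* 4/4, beside 16311 and 15474 of all 29947 probes. These 22 probes share arrays and a cell type, so they are not separate observations. At an unadjusted limma p under 0.05, 1 was lower in *Per3* 5/5 (6.17% of all probes had such a p). In *Per3* 4/4 5 were higher (1.73% of all probes), and 0 passed the adjusted threshold in either. The part of this list in the members' differences was not tested.

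By Pearson's r, 8 of the 65 relations passed the adjusted threshold. Without the 2 arrays farthest from the median their r was between 0.38 and 0.68 in size, and without *Per3* 4/4 arrays 6 and 7 between 0.57 and 0.72. By Spearman's rho 10 passed, these 8 and 2 more. The 2 were oligodendrocytes with *Apod* (rho = 0.63, adjusted permutation p = 0.0093; r = 0.45, adjusted p = 0.13) and pituitary with *Apoe* (rho = -0.52, adjusted permutation p = 0.026; r = -0.21, adjusted p = 0.54).

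**Figure D4:**
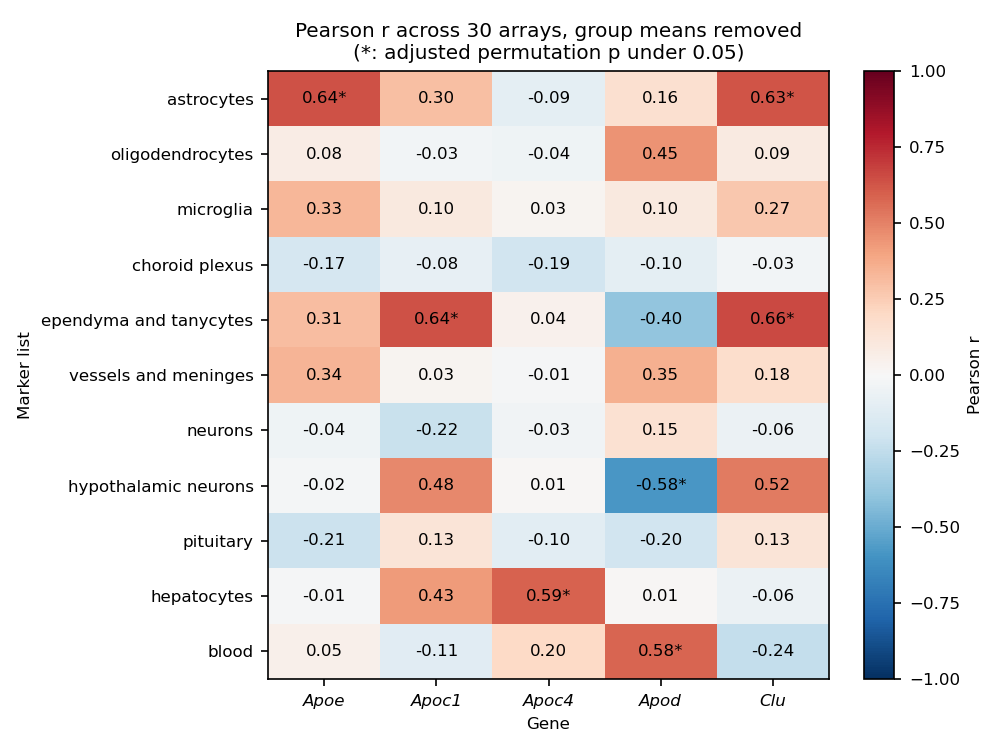
Each cell gives Pearson's r over 30 arrays, group means removed, between the mean level of a cell type's markers (y axis) and a gene (x axis), with red for positive and blue for negative values. The starred cells, whose adjusted permutation p is under 0.05, are astrocytes with Apoe and Clu, ependyma and tanycytes with Apoc1 and Clu, hepatocytes with Apoc4, and hypothalamic neurons and blood with Apod.

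Probes among the 3 most like each of the other members were found by the same measure over 30 arrays. For *Apoe* they were *Cst3* (cystatin C, a protease inhibitor of brain glia; r = 0.88), *Sardh* (0.84) and *Rps15* (a ribosomal protein; 0.83), and for *Clu* *Cox6b2* (0.92) and *Pcsk1n* (0.89). For *Apoc1* they were *Fam70a* (0.80) and *Akr1b3* (aldose reductase; 0.79), and for *Apod* *Cdr2l* (0.79), *E130308A19Rik* (0.76) and *Impa2* (an inositol monophosphatase; 0.76). For *Clu* the 2 values were 0.86 or more within each run, and for *Apoc1* they were 0.605 and 0.56 in run 1 and 0.89 for both in run 2.

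In the genes of lipid transport around the members, 0 probes passed the adjusted threshold in either knock-in. The first list held other apolipoproteins and some genes that are none, such as *Apobec1* and *Pltp*. Of its 28 probes tested (22 of 33 listed genes), 0 had an unadjusted p under 0.05, beside 6.17% of all probes in *Per3* 5/5 and 1.73% in *Per3* 4/4, with a median difference of -0.07 in *Per3* 5/5 and 0.12 in *Per3* 4/4, beside -0.02 and 0.01 over all probes. Among probes above background on all arrays, the largest differences in *Per3* 5/5 were those of *Apoc2*, the activator of lipoprotein lipase (A_51_P334979, -0.69 ± 0.37, limma adjusted p = 0.80), and of *Apoa2* (-0.57 ± 0.37, limma adjusted p = 0.82), which was 0.13 without WT arrays 1 and 6. That of *Apoc2* was -0.41 without *Per3* 5/5 array 3, and that of *Apoa2* -0.29 without WT array 1 and -0.27 without WT array 6. Those in *Per3* 4/4 were of *Apoa2* (0.28 ± 0.35) and *Apoc3*, an inhibitor of lipoprotein lipase (A_51_P310629, 0.26 ± 0.30), and the smallest unadjusted p was that of *Apobec1*, the enzyme that edits *Apob* RNA (A_52_P55029, -0.24 ± 0.16, p = 0.16, adjusted p = 1 by limma). Single arrays carried much of these values. *Apoa2* was 0.098 without WT array 10 and 0.11 without *Per3* 4/4 array 5, and *Apobec1* was -0.11 without WT array 14. *Apoc3* was 0.018 without WT array 10, 0.15 without WT array 8 and 0.16 without *Per3* 4/4 array 8.

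Of 51 probes of lipoprotein receptors and their adaptors (31 of 33 genes), 1 was higher and 2 were lower at an unadjusted p under 0.05 in *Per3* 5/5, and 1 was higher in *Per3* 4/4. Of all probes 6.17% and 1.73% had such a p, so these counts are near the share over all probes. Both lower probes were of *Dab1*, the adaptor that the reelin receptors VLDLR and APOER2 bind, and all 4 probes of the gene differed by -0.39 to -0.31. The higher probe was of *Mylip*, a ubiquitin ligase for the LDL receptor, named after its value was seen (A_52_P248343, 0.56), whose other probe differed by 0.01 (A_51_P324303). *Dab1* (A_52_P354286) had a level of -1.18 ± 0.16 (SD) on the *Per3* 5/5 arrays and -0.79 ± 0.19 on the 7 WT arrays, with 7 of 7 knock-in arrays below the WT mean (difference -0.39 ± 0.14, limma adjusted p = 0.80). For 4.47% of all probes every *Per3* 5/5 array lay below the WT mean. The largest difference among bright probes was that of *Lrp1b*, a large receptor of the LDL receptor family (-0.62 ± 0.33, limma adjusted p = 0.80), and it was -0.31 without *Per3* 5/5 array 3. In *Per3* 4/4 *Sdc4*, a heparan sulfate proteoglycan, differed by 0.31 ± 0.14 (A_52_P93467, 8 of 8 arrays above the WT mean, limma adjusted p = 1) and its other probe by 0.06 (A_51_P323248). How many of all probes had every knock-in array above the WT mean was not counted. *Reln*, the ligand reelin, differed by -0.35 ± 0.26. Without WT array 10, the array low in markers of hypothalamic neurons and oligodendrocytes, these were 0.19 for *Sdc4* and -0.034 for *Reln*. The part of its marker levels in the *Per3* 4/4 differences was not tested.

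Of 43 probes of sterol efflux and lipoprotein processing (29 of 32 genes), 1 had an unadjusted p under 0.05 in *Per3* 5/5 (6.17% of all probes) and 0 in *Per3* 4/4 (1.73% of all probes). It was *Stard4*, a carrier of sterol inside cells that the list of cholesterol synthesis holds as well (A_52_P561205, 0.37 ± 0.17, 7 of 7 arrays above the WT mean, limma adjusted p = 0.80). The share of all probes with every knock-in array above the WT mean was not counted. The other 2 *Stard4* probes, A_51_P105445 and A_52_P384574, differed by -0.04 and 0.01. *Lpl*, lipoprotein lipase, differed by -0.34 ± 0.27 in *Per3* 5/5 and -0.42 ± 0.25 in *Per3* 4/4. *Abcg2* differed by 0.32 ± 0.16 in *Per3* 5/5 (A_52_P336142), and its other probe by 0.10 (A_51_P184886). *Lcat*, which esterifies cholesterol on lipoproteins, differed by -0.31 ± 0.23 in *Per3* 4/4. *Lpl* was -0.52 in *Per3* 5/5 without *Per3* 5/5 array 3 and -0.28 in *Per3* 4/4 without WT array 10. *Abcg2* was 0.21 without *Per3* 5/5 array 3, and *Lcat* -0.12 without WT array 15 and -0.18 without *Per3* 4/4 array 5. Of 28 probes of sterol-sensing transcription factors (17 of 17 genes), *Ppara*, a receptor for fatty acids, was the only probe with an unadjusted p under 0.05 in *Per3* 5/5 (-0.31 ± 0.14, limma adjusted p = 0.80), and 0 had one in *Per3* 4/4, beside the same shares of all probes. *Rxrb* differed by 0.26 ± 0.21 in *Per3* 5/5, and *Esr1* by 0.52 ± 0.31 and *Pparg* by -0.29 ± 0.22 in *Per3* 4/4. The second probes of *Rxrb* (A_52_P519689) and *Esr1* (A_51_P474658) differed by -0.12 and -0.35 in the same comparisons. *Rxrb* was 0.16 without *Per3* 5/5 array 3, *Pparg* -0.020 without WT array 10, and *Esr1* 0.25 without WT array 10 and 0.79 without WT array 14.

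Cholesterol synthesis had the most probes with a small unadjusted p. In *Per3* 5/5 7 of 43 probes (21 of 22 genes) were higher and 1 was lower at p under 0.05, beside 1027 higher and 822 lower of all 29947 probes (6.17%). A positive difference was found for 31 of 43, beside 13631 of all 29947, with a median of 0.07 beside -0.02 over all probes. None passed the adjusted threshold, and several share a gene. *Fdps*, which makes farnesyl diphosphate, reached 1.15 ± 0.61 (SD) on the *Per3* 5/5 arrays and 0.69 ± 0.17 on the 7 WT arrays, with 5 of 7 arrays above the WT mean (A_51_P379798, 0.45 ± 0.18, limma adjusted p = 0.80), while its other probe differed by -0.24 (A_52_P593965). The 4 probes of *Nsdhl*, a later enzyme of the pathway, disagreed. A_51_P326942 differed by 0.41 ± 0.18 and A_51_P146701, named after its value was seen, by -0.48 ± 0.22 (limma adjusted p = 0.80 for both), and the others by 0.15 each. In *Per3* 4/4 the only such probe was of *Cyp51*, lanosterol demethylase (A_52_P164161, 0.41 ± 0.13, 7 of 8 arrays above the WT mean, limma p = 0.0031, adjusted p = 1), and *Hmgcs1*, which makes HMG-CoA, differed by 0.28 ± 0.21, which was 0.11 without WT array 10.

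Of 22 probes of the genes beside *Apoe* on chromosome 7 (17 of 22 genes), 1 was higher and 1 lower at an unadjusted p under 0.05 in *Per3* 5/5 (6.17% of all probes) and 0 in *Per3* 4/4 (1.73%). The lower was *Relb*, a subunit of NF-kappa B (-0.29 ± 0.11, 7 of 7 arrays below the WT mean, as for 4.47% of all probes, limma adjusted p = 0.80). The higher was *Trappc6a*, a subunit of a vesicle tethering complex, named after its value was seen (A_52_P534018, 0.35, limma adjusted p = 0.80), whose other probe differed by -0.07 (A_51_P485683). *Apoc2*, given above, also lies here. *Tomm40*, the mitochondrial import pore next to *Apoe*, differed by 0.42 ± 0.25 in *Per3* 5/5, which was 0.26 without *Per3* 5/5 array 3. In *Per3* 4/4 the largest differences among probes above background on all arrays were those of *Ppp1r37* (-0.22 ± 0.15) and *Nkpd1* (0.18 ± 0.17), which were -0.12 without WT array 15 and -0.0073 without WT array 10. No probe of the neighbours passed the adjusted threshold.

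Without *Per3* 4/4 arrays 6 and 7 the list genes named in *Per3* 4/4 kept their sign and none passed the adjusted threshold. *Lcat* was then -0.51, *Ppp1r37* -0.34, *Hmgcs1* 0.16 and *Pparg* -0.19, each over 1.5 times from its value with all arrays. *Cyp51* was 0.54, *Sdc4* 0.40, *Lpl* -0.51, *Reln* -0.35, *Esr1* 0.36, *Apoa2* 0.25, *Apoc3* 0.20, *Apobec1* -0.20 and *Nkpd1* 0.14. With normexp *Stard4* was 0.052 and *Lrp1b* -0.39 in *Per3* 5/5, *Lpl* -0.21 in *Per3* 5/5 and -0.28 in *Per3* 4/4, and *Esr1* 0.28, *Apoa2* 0.15 and *Apoc3* 0.17 in *Per3* 4/4.

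**Figure D5:**
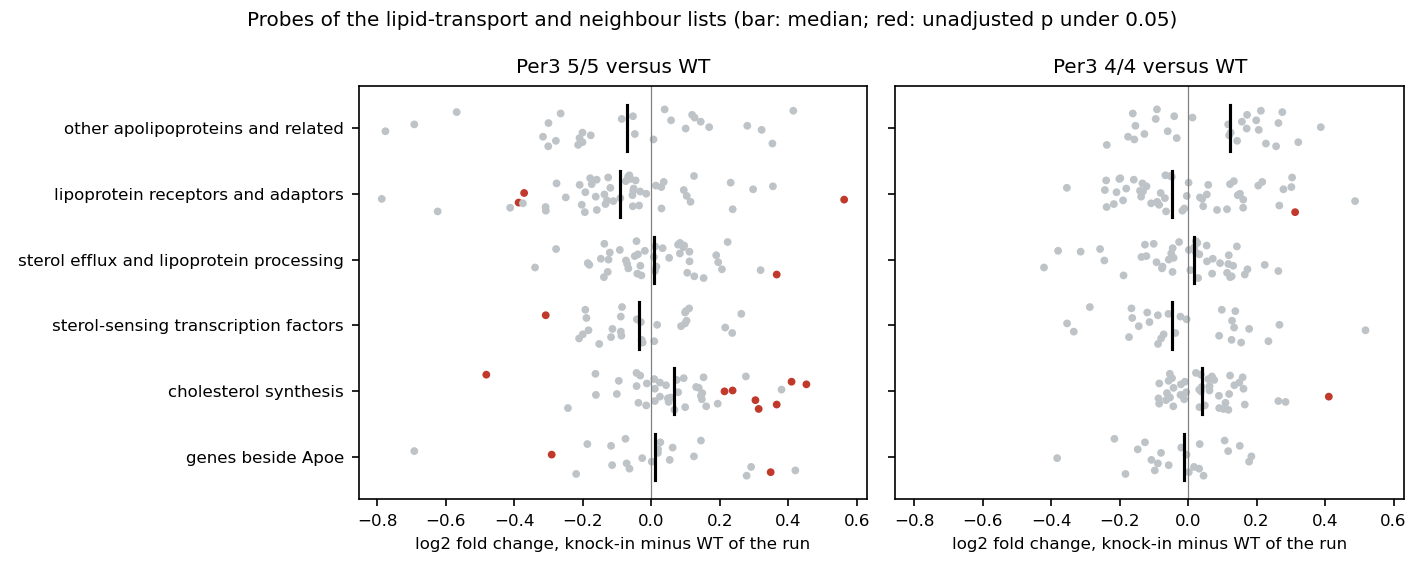
Each point is 1 probe of a list of lipid-transport genes or of genes beside Apoe, with its log2 fold change (knock-in minus WT of the run) on the x axis, the list on the y axis and the median as a black bar; red points have an unadjusted limma p under 0.05. Cholesterol synthesis in Per3 5/5 holds 8 red points, and no other list holds more than 3 in either panel.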

How the data were processed

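RNA of 1 hypothalamus per array was labelled with Cy3 and hybridised to Agilent arrays, and per the file headers the deposited intensity values are Feature Extraction signals, background-subtracted and spatially detrended by the scanner software (43379 non-control spots per array). The authors' own log2 table, shifted to the 75th percentile and centred per probe, was used only as an alternative: in run 1, 13 of its 14 columns hold another array of the same genotype than the scanner file of that label, so group means are untouched but array numbers here are those of the scanner files. Outlier-flagged spots (36 to 117 per array) were left out, no spot was saturated, and spots of a probe were averaged. The log2 signal minus the array's 75th percentile was fitted in limma 3.58.1 (R 4.3.3) with genotype and run as terms over 30 arrays, with Benjamini-Hochberg adjustment over 29947 probes. P-values are two-sided. Relations used 100000 permutations within groups (two-sided, Benjamini-Hochberg over 65 relations). The methods' t-test and rank product (100 permutations, limit 0.015) were run on the same values. Limma and the rank product were tested on simulated data. Gene names are those of the array, and 4 listed genes were matched through RefSeq accession or synonym. Of the 3 probes most like a member, some are not reported here. Named list genes were the probe with the smallest p and the 2 largest changes per list and comparison. The number of arrays limits the precision. The members and lists were chosen with earlier results of these data known. Replicate numbers shared by *Per3* 5/5 and WT did not pair arrays (correlation of deviations -0.29 to 0.40). Markers of microglia, vessels and meninges, neurons and choroid plexus showed no relation to a member past the adjusted threshold by r or rho.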

Additional observations from a re-analysis of the deposited data

Results flagged for a closer look

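The effects of the knock-ins on *Apoc1* differed by -0.72 log2 units (*Per3* 5/5 minus *Per3* 4/4, limma p = 0.043, adjusted p = 1), which was -0.42 without WT arrays 1 and 6 of run 1. Such a difference was also found for *Cyp51* (-0.39, limma p = 0.048) and *Sdc4* (-0.51, limma p = 0.023), both with a limma adjusted p of 1. Of all probes 2.98% had an unadjusted p under 0.05 in this comparison. Both genes had been named for the smallest p of their lists in *Per3* 4/4, and the difference uses the same arrays. Their p therefore cannot be read as a separate result.

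A single array far from the rest was found in 13 of 96 groups of arrays among the 24 probes named from the lists, and in 0 of 20 groups among the members. The criterion cannot see a pair of arrays that stand out together, as *Apoc4* did on WT arrays 1 and 6 of run 1 and *Per3* 4/4 arrays 3 and 5, so the 0 does not show that the members lacked deviating arrays. By Dixon's criterion chance gives about 1 in 20, but these 24 probes were chosen for a large change or a small p, which 1 deviating array can produce, so their count cannot be read against that share. On WT array 10 of run 2 these were *Nkpd1* (level -2.45), *Pparg* (-0.83), *Reln* (2.67) and *Sdc4* (-1.98), and on *Per3* 4/4 array 5 *Apoa2* (-1.16), *Apoc2* (-2.54) and *Tomm40* (-0.072). On *Per3* 5/5 array 3 they were *Esr1* (-3.09) and *Reln* (-0.056), and on *Per3* 5/5 array 6 *Hmgcs1* (-2.26). The others were *Lcat* on WT array 15 of run 2 (1.15), *Relb* on WT array 1 of run 1 (-0.60) and *Rxrb* on *Per3* 4/4 array 7 (0.24).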

How the results depend on the processing

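No limma alternative and no fit without 1 array called a member, nor any probe of the lists. The rank product called 1 member in *Per3* 5/5 and lost it without WT array 1 or 6, which was tried after seeing the data. Of 627 alternative values of the members' changes 17 turned sign, all of *Apod* or *Clu*. *Apod* was 0.0039 in *Per3* 4/4 and -0.055 in the difference between knock-ins without *Per3* 4/4 arrays 6 and 7, and -0.13 in that difference without WT arrays 1 and 6 of run 1. With 1 array left out *Apod* ranged from -0.13 to 0.040 in *Per3* 5/5, from -0.17 to 0.0085 in *Per3* 4/4 and from -0.060 to 0.12 in the difference, and *Clu* in *Per3* 4/4 from -0.13 to 0.017. *Apoa2* turned to 0.13 in *Per3* 5/5 without WT arrays 1 and 6, and *Nkpd1* in *Per3* 4/4 ranged from -0.0073 (without WT array 10) to 0.24. The cause was not tested.

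Over all probes, limma called 0 in *Per3* 5/5 (0 to 3 with 1 array left out: 2 without *Per3* 5/5 array 5, 3 without WT array 7), 4 in *Per3* 4/4 (2 to 8: 2 without *Per3* 4/4 array 4 or WT array 8, 7 without WT array 9 or 11, 8 without *Per3* 4/4 array 7) and 0 in the difference (0 to 2: 2 without *Per3* 5/5 array 5). In *Per3* 4/4 it called 0 with the arrays of the run alone, 9 with slide as a random block, and 7 each with normexp, with probes above background on every array, with outlier spots kept and without arrays 6 and 7. For that block, 2 scans of run 2 with the same slide identifier and array positions were taken as separate slides. The t-test called 0 in both. The rank product called 316 in *Per3* 5/5 (322, 162 and 134 without WT array 1, 6 and both) and 45 in *Per3* 4/4. With the replicate number as a block, *Apoc4* in *Per3* 5/5 was -1.14 and the calls over all probes were 0 and 4. With normexp *Apoc4* was -0.57 in *Per3* 5/5 and 0.07 in *Per3* 4/4. The intensity of *Apoc4*, near background on 15 of 30 arrays, limits what run 2 can show.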
